A study of Mus musculus with 2 samples.

Results

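The subject is a set of 10 nuclear genes that shape and move mitochondria, measured in 3T3-L1 cells with and without siRNA knockdown of Pink1. They were taken by symbol from both deposited count tables. Of the 23238 distinct symbols in the tables, 10 are these genes, and each has 1 row. Mfn1, Mfn2 and Opa1 act in fusion, Dnm1l, Fis1, Mff, Mief1 and Mief2 in fission, and Rhot1 and Rhot2 in motility. 3T3-L1 is a mouse fibroblast cell line that can be turned into fat cells in culture, and the labels call the cells murine adipocytes. The knockdown cells received the siRNA against Pink1 (labelled sipink, 1 library) and the comparison cells received a control siRNA (labelled control, 1 library). The sources used here do not give the siRNA sequences, their dose, the hours between transfection and harvest or how far the cells had differentiated. The study, by its title, concerns PINK1 deficiency and bone loss with age.

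Mitochondria form a network that is joined by fusion, cut by fission and carried along microtubules. Mitofusins join outer membranes and OPA1 joins inner membranes, while the dynamin-related protein DRP1, the product of Dnm1l, is recruited from the cytosol by receptors on the outer membrane and constricts the organelle. The Miro proteins, products of Rhot1 and Rhot2, link mitochondria to kinesin and dynein through TRAK adaptors. PINK1 is a kinase that accumulates on damaged mitochondria and activates the ubiquitin ligase Parkin, and mitofusins and Miro proteins are among the proteins that Parkin marks with ubiquitin. That control acts on proteins, whereas the values below are RNA levels.

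The Pink1 siRNA library held 14214768 counts and the control siRNA library 13803174. A count is a read from the 3′ end of a transcript (a tag), since the kit primes at the poly(A) tail. Levels are CPM, counts divided by the effective library size and scaled to a common total, and a ratio is the Pink1 siRNA level over the control siRNA level. Each group is 1 library, so no difference has a replicate check and no p-value is given. The 95% intervals are exact and cover counting error only, and reads copied from 1 molecule are not separated. The label was checked against marker genes. Of 12 adipocyte markers 11 were measured, led by Fabp4 (16749 counts in the Pink1 siRNA library, 14673 in the control siRNA library), while Lep had 0 counts in both. The preadipocyte gene Dlk1 (130666 counts with Pink1 siRNA, 116628 with control siRNA) and the fibroblast gene Col1a2 (149245 with Pink1 siRNA, 160662 with control siRNA) were abundant too, so both libraries held transcripts of both cell states. The adipocyte markers had a median log2 ratio of -0.0035, but single ones differed in both directions, with ratios of 0.510 for Slc2a4, 0.607 for Plin1, 1.35 for Cd36 and 1.49 for Retn. The 8 measured preadipocyte and fibroblast markers had a median log2 ratio of 0.12 and ranged from -0.11 for Col1a2 to 0.55 for Thy1. None of these markers passed the rule of size defined below, and their part in the results was not tested. Of 5 osteoblast markers 1 was measured, Runx2, with 217 counts with Pink1 siRNA and 419 with control siRNA (ratio 0.518). Of 583 genes of like level, 3, Runx2 among them, were at or below its ratio. Such numbers count the gene itself here and below. Runx2 overlaps Supt3, so its counts are uncertain, and where the overlap lies was not examined. Of 5 macrophage markers Cd68 alone was measured, with 23 counts with Pink1 siRNA and 20 with control siRNA. Csf1r had 11 counts with Pink1 siRNA and 25 with control siRNA, Ptprc had 0 with Pink1 siRNA and 5 with control siRNA, and Adgre1 and Itgam had 0 in both. None of 4 endothelial markers was measured, with Pecam1 at 7 counts with Pink1 siRNA and 8 with control siRNA, and Cdh5, Kdr and Tek at 0 in both. A smaller number of cells of a state and less RNA per cell cannot be told apart in such bulk samples.

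Pink1 had 351 counts in the Pink1 siRNA library and 511 in the control siRNA library, or 25.1 against 36.5 CPM. The ratio was 0.687 (interval 0.598 to 0.788), a level 31.3% lower, so the gene was still well detected. Among the 583 genes in the same twentieth of mean level, 23 were at or below that ratio. Pink1 itself did not pass the rule of size defined below.

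All 10 genes were measured, which means at least 40 counts in both libraries together, and most of them differed little between the libraries. None passed the rule of size (a ratio of at least 2 either way with a counting interval that leaves out 1), which 4.08% of the 11660 measured genes passed. Of the 10, 8 (all but Mff and Mief1) had a ratio above 1, as did 51.1% of all measured genes, and with total counts as the scale Opa1 moved below 1, leaving 7. The median log2 ratio of the 10 was 0.12, beside 0.0047 for all measured genes. The genes farthest from 1 were Mief2 (1.72-fold higher), Mff (1.27-fold lower) and Mfn2 (1.26-fold higher). The other 7 had log2 ratios between -0.12 and 0.16. With the main scaling (TMM), the counting interval lay above 1 for Mfn2, Dnm1l and Mief2 and below 1 for Mff. Among all measured genes 26.2% had an interval above 1 and 24.9% below, so an interval that leaves out 1 is common between these libraries.

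**Figure D1:**
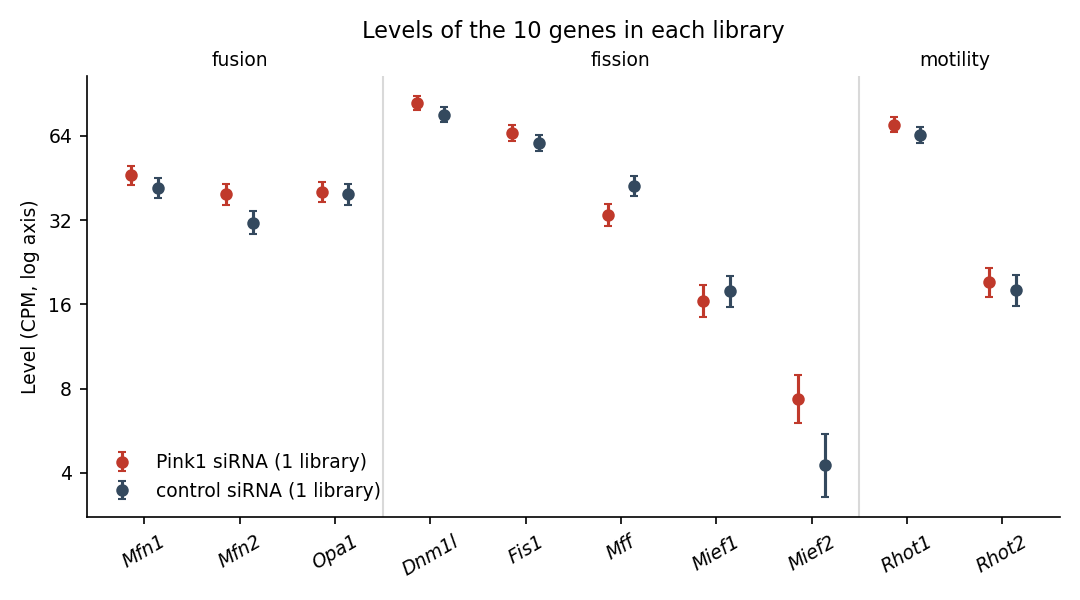
Level of each gene in CPM (vertical, log axis) in the Pink1 siRNA library (red) and the control siRNA library (dark grey), with points for the level and bars for exact 95% Poisson intervals, which cover counting error only. The intervals of the libraries do not meet for Mief2 (7.35 against 4.28 CPM) and Mff (33.3 against 42.5 CPM) or for Mfn2 (39.6 against 31.3 CPM), and they overlap for the other 7. Points are to be compared within a gene.

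The fusion genes all had ratios at or a little above 1. Mfn2 (chromosome 4, 147873586 to 147904909, mm10) encodes a mitofusin that also tethers mitochondria to the endoplasmic reticulum. It had 554 counts in the Pink1 siRNA library and 439 in the control siRNA library, or 39.6 against 31.3 CPM. Its ratio was 1.26 (interval 1.11 to 1.43). It was the fusion gene farthest from 1, with a log2 ratio of 0.34, outside the middle 50% of genes of like level (-0.19 to 0.20). Of those 583 genes, 65 had a ratio as high or higher, or 11.1%.

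Mfn1 (chromosome 3, 32529443 to 32579225) encodes the other mitofusin, which docks opposing outer membranes. It had 649 counts in the Pink1 siRNA library and 582 in the control siRNA library, or 46.3 against 41.5 CPM. Its ratio was 1.12 (interval 0.996 to 1.25), and its interval reached just below 1. Of 583 genes of like level, 140 were as high or higher, and its log2 ratio of 0.16 lay just above their middle 50%. Opa1 (chromosome 16, 29579281 to 29663127) encodes the inner membrane dynamin that fuses inner membranes and keeps cristae narrow. It had 567 counts in the Pink1 siRNA library and 554 in the control siRNA library, or 40.5 against 39.5 CPM. Its ratio of 1.02 (interval 0.909 to 1.15) was the nearest to 1 of the 10 genes, and its sign depended on the scale. Summed over the 3 fusion genes, the libraries held 1770 counts with Pink1 siRNA and 1575 with control siRNA. The ratio of these sums was 1.12 (interval 1.05 to 1.204), beside 1.03 for the sum over all measured genes. Mfn2 had the largest difference in counts of the 3.

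The fission genes spread in both directions. Dnm1l (chromosome 16, 16312228 to 16359038), the gene of the constricting enzyme itself, had 1177 counts in the Pink1 siRNA library and 1068 in the control siRNA library, or 84.0 against 76.2 CPM. Its ratio was 1.10 (interval 1.014 to 1.198). The log2 ratio of 0.14 lay within the middle 50% of genes of like level, which ended at 0.15. The difference was therefore an ordinary one for these libraries, and it exceeded counting error only with some scalings. The lower end of its log2 interval was 0.020, and scaling by total counts shifts log2 ratios by -0.043. On that scale the interval also holds equal levels.

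The 4 genes of outer membrane proteins that bind DRP1 differed most among themselves. Mff (chromosome 1, 82724890 to 82752390), the mitochondrial fission factor, is a main receptor for DRP1. It had 467 counts in the Pink1 siRNA library and 595 in the control siRNA library, or 33.3 against 42.5 CPM. Its ratio was 0.785 (interval 0.694 to 0.888), a level 21.5% lower. Among 583 genes of like level, 61 (10.5%) were at or below that ratio. The log2 ratio of -0.35 lay below the middle 50% of these genes, whose lower end was -0.19.

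Mief2 (chromosome 11, 60728398 to 60732951) encodes MiD49, an adaptor that recruits DRP1 and can hold it inactive. It had the fewest tags of the 10 genes, with 103 counts in the Pink1 siRNA library and 60 in the control siRNA library. The levels were 7.35 CPM (interval 6.002 to 8.92) with Pink1 siRNA and 4.28 CPM (3.27 to 5.51) with control siRNA. Its ratio of 1.72 (interval 1.24 to 2.40) and log2 ratio of 0.77 were the largest of the 10. Genes with so few tags varied more between the libraries, with the middle 50% of log2 ratios from -0.33 to 0.36, and 53 of 583 (9.09%) had a ratio as high or higher. Mief2 was the 1 gene of the 10 with a ratio of at least 1.5 in either direction, a size that 5.90% of all measured genes reached upward and 7.24% downward.

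Mief1 (chromosome 15, 80233964 to 80253372) encodes MiD51, the paralogue of MiD49 with the same role. It had 230 counts in the Pink1 siRNA library and 250 in the control siRNA library, or 16.4 against 17.8 CPM. Its ratio was 0.920 (interval 0.766 to 1.10), and 225 of 583 genes of like level were as low or lower. Fis1 (chromosome 5, 136953275 to 136966234) encodes a small outer membrane protein known in yeast as the receptor of the fission dynamin and, in mammals, as a recruiter of proteins that act on mitochondrial shape and turnover. It had 918 counts in the Pink1 siRNA library and 847 in the control siRNA library, or 65.5 against 60.5 CPM, a ratio of 1.08 (interval 0.986 to 1.19). Neither Mief1 nor Fis1 lay outside the middle 50% of genes of their level.

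The motility genes had ratios just above 1. Rhot1 (chromosome 11, 80208610 to 80267907) encodes Miro1, a calcium-binding GTPase of the outer membrane that anchors the motor complex. It had 983 counts in the Pink1 siRNA library and 900 in the control siRNA library, or 70.2 against 64.2 CPM. Its ratio was 1.09 (interval 0.997 to 1.197). Rhot2 (chromosome 17, 25838457 to 25844525) encodes Miro2, which has an overlapping role. It had 269 counts in the Pink1 siRNA library and 252 in the control siRNA library, or 19.2 against 17.99 CPM, a ratio of 1.07 (interval 0.896 to 1.27). Both log2 ratios, 0.13 for Rhot1 and 0.094 for Rhot2, lay within the middle 50% of genes of like level.

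**Figure D2:**
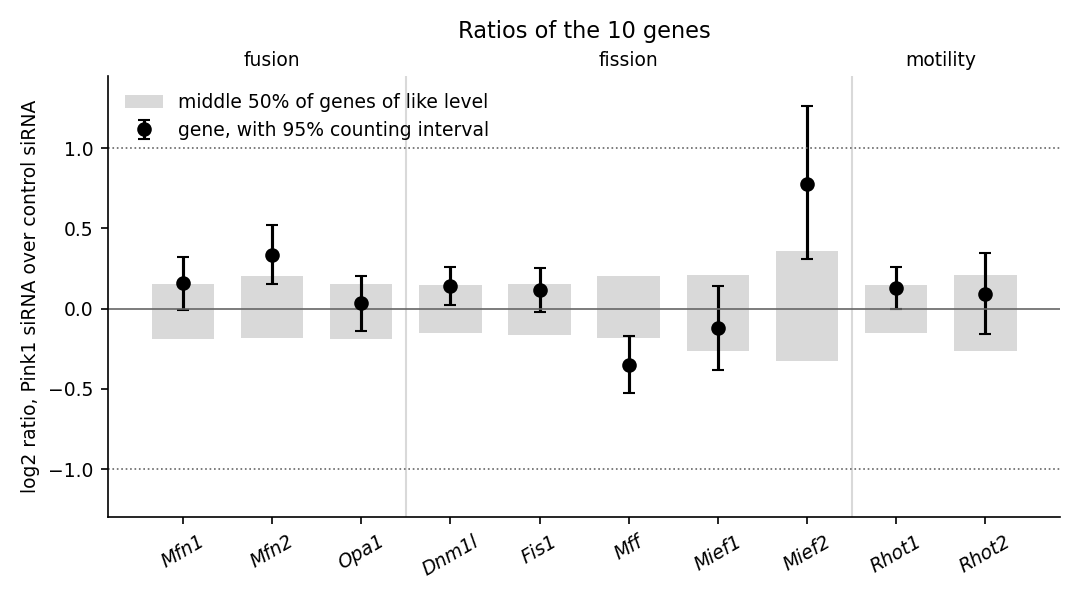
The log2 ratio of Pink1 siRNA over control siRNA for each gene (points) with its 95% counting interval (bars), beside the middle 50% of log2 ratios among the 583 genes of like level (grey boxes). Dotted lines mark a ratio of 2 either way. Mief2 (0.77) and Mfn2 (0.34) lie above their boxes, Mfn1 (0.16) just above the top edge of its box and Mff (-0.35) below its box, and no gene reaches a dotted line.

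**Figure D3:**
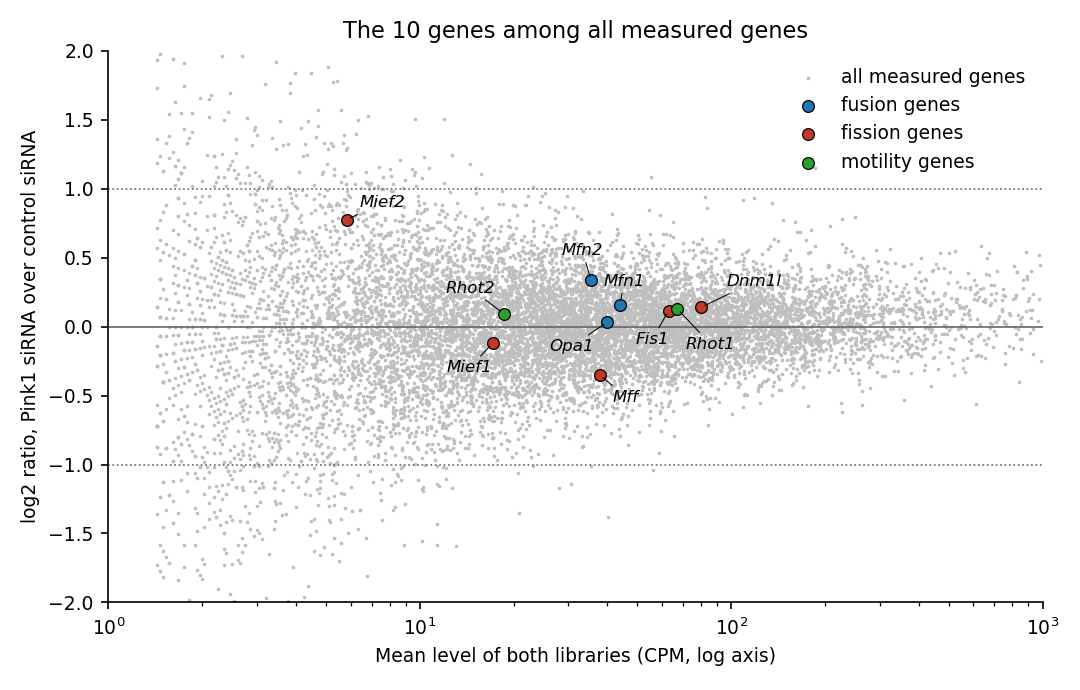
The log2 ratio of Pink1 siRNA over control siRNA (vertical) against the mean level of both libraries in CPM (horizontal, log axis) for all measured genes (grey) and for the fusion (blue), fission (red) and motility (green) genes. Of the 11660 genes, 148 lie outside the axes. The spread of grey points widens to the left, where Mief2 lies, and all 10 genes lie inside the grey cloud.

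Because a share within a gene pair does not depend on how libraries are scaled, the make-up of each pair of paralogues was compared between the libraries. The values are shares of tags, and they are compared between libraries and not read as relative amounts of protein. Mief2 held 30.9% of the tags of Mief1 and Mief2 in the Pink1 siRNA library (103 of 333, exact binomial interval 26.0% to 36.2%) and 19.4% in the control siRNA library (60 of 310, 15.1% to 24.2%). The odds ratio was 1.86 (interval 1.28 to 2.74), so this pair leaned further to Mief2 with Pink1 siRNA by more than counting error. Shares in pairs or sets of other genes were not computed, so how common such shifts are between these libraries is not known. Mfn1 held 53.9% of the tags of both mitofusins with Pink1 siRNA and 57.0% with control siRNA, and the odds ratio of 0.884 (interval 0.744 to 1.05) included 1. Rhot1 held 78.5% of the tags of both Miro genes with Pink1 siRNA and 78.1% with control siRNA. That odds ratio was 1.02 (interval 0.838 to 1.25), so no shift was detectable at this depth.

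Over the 4 genes of DRP1-binding proteins, the sum of tags was nearly equal, at 1718 with Pink1 siRNA and 1752 with control siRNA (ratio 0.981, interval 0.917 to 1.05), while its make-up differed. Mff held 27.2% of these tags in the Pink1 siRNA library and 34.0% in the control siRNA library. Fis1 held 53.4% with Pink1 siRNA and 48.3% with control siRNA, and Mief2 held 6.0% with Pink1 siRNA and 3.42% with control siRNA. Mief1 held 13.4% with Pink1 siRNA and 14.3% with control siRNA. The odds ratios were 0.726 (interval 0.626 to 0.842) for Mff, 1.23 (1.07 to 1.40) for Fis1 and 1.80 (1.29 to 2.53) for Mief2, and 0.929 (0.762 to 1.13) for Mief1. A share also depends on the tags of the other 3 genes, and the ratio of Fis1 itself had an interval that included 1.

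**Figure D4:**
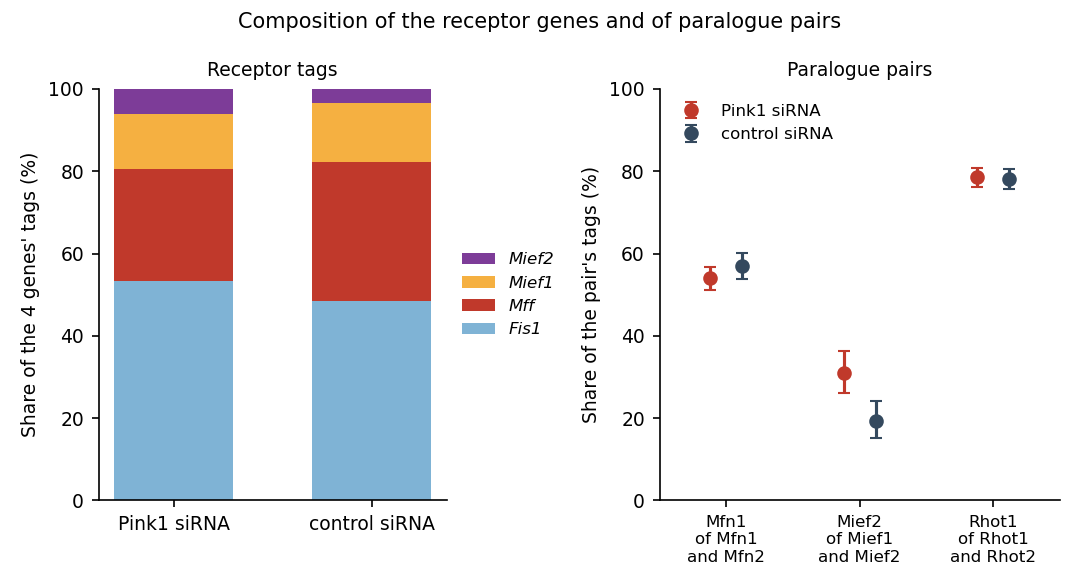
Left, the share (%) of tags that Fis1, Mff, Mief1 and Mief2 take of their sum in the Pink1 siRNA and control siRNA libraries; right, the share (%) of 1 paralogue in each pair, with exact 95% binomial intervals for counting error. Mff takes 27.2% of the receptor tags with Pink1 siRNA and 34.0% with control siRNA, and Mief2 takes 30.9% of its pair with Pink1 siRNA and 19.4% with control siRNA, while the shares of the Mfn and Rhot pairs lie close together.

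The balance between the roles differed little. Fusion genes held 29.9% of the tags of all 10 genes in the Pink1 siRNA library and 28.4% in the control siRNA library. Fission genes held 48.9% with Pink1 siRNA and 50.8% with control siRNA, and motility genes held 21.2% with Pink1 siRNA and 20.8% with control siRNA. Of fusion and fission tags together, fusion genes took 37.9% with Pink1 siRNA and 35.8% with control siRNA, with an odds ratio of 1.09 (interval 1.004 to 1.19). All 10 genes together had 5917 counts with Pink1 siRNA and 5547 with control siRNA, or 422 against 396 CPM.

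The counting could mix reads where genes share sequence or overlap. In the last 500 bases of the longest GENCODE transcript of each gene, where tags of a 3′ kit fall, no run of 50 bases was shared with a transcript of another gene for 9 of the 10 genes, pseudogenes included. In Rhot2, 9 of 451 such runs were shared. Trabd2b, with 474 counts with Pink1 siRNA and 652 with control siRNA, was among the genes sharing them. Over the whole transcript, 1299 of 3140 runs of Rhot2 were shared, with Wdr90 among the genes sharing them. The same held for 243 of 3917 runs of Dnm1l, 164 of 5099 of Mief1 and 3 of 4513 of Mfn1. Rhot2 was the 1 gene of the 10 that overlapped another gene with at least 40 counts. The overlap is with Wdr90 over 81 exonic bases on the same strand, at the 5′ end of Rhot2 and the 3′ end of Wdr90, which had 172 counts with Pink1 siRNA and 176 with control siRNA. It holds for GENCODE, where Rhot2 ends at 25844851 and Wdr90 starts at 25844771. The RefSeq span of Rhot2 given above ends at 25844525, short of Wdr90. The annotation used in counting is unknown, so the Rhot2 values are uncertain, also if strand was used.

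The partners of these proteins were described from 6 lists chosen by function, which hold 91 genes, 85 of them measured. Their median log2 ratio was 0.00011, with 43 ratios above 1 and 42 below, and 0 were called higher and 3 lower by the rule of size, beside 1.69% and 2.39% of all measured genes. The lists were chosen with earlier results of these data known, so the counts describe them and test nothing.

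Partners of fusion and of OPA1 processing had a median log2 ratio of -0.061, with 6 of 14 measured ratios above 1 and 8 below. Stoml2, whose product binds cardiolipin and prohibitins in the inner membrane and restrains OPA1 cleavage under stress, had 220 counts with Pink1 siRNA and 366 with control siRNA (ratio 0.601, interval 0.506 to 0.712). It was the lowest of the list, and 13 of 583 genes of like level were as low or lower. The inner membrane protease gene Afg3l2 had 582 counts with Pink1 siRNA and 744 with control siRNA (ratio 0.782). Pld6, a lipid-hydrolysing enzyme of the outer membrane, had a ratio of 0.811 and Vat1, reported to oppose mitofusin, 1.22. The proteases that cut OPA1 were near 1, at 0.894 (interval 0.761 to 1.05) for Oma1 and 0.970 (0.898 to 1.05) for Yme1l1, both named after their values were seen.

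Regulators of fission had a median log2 ratio of -0.11, with 8 of 19 measured ratios above 1 and 11 below, and 1 gene was called. Mtfp1, an inner membrane protein that promotes fission, was lower by the rule from 17 counts with Pink1 siRNA and 44 with control siRNA (ratio 0.386, interval 0.207 to 0.690). Such low counts scatter widely, and 69 of 583 genes of like level were as low or lower. Arl2, a small GTPase, had 498 counts with Pink1 siRNA and 333 with control siRNA (ratio 1.496, interval 1.299 to 1.72). Spire1, whose product assembles actin at fission sites, had a ratio of 0.671. Ppp3cb, a catalytic subunit of calcineurin, the phosphatase that activates DRP1, had a ratio of 0.713 (interval 0.630 to 0.808).

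Among motility adaptors and motors, 10 of 22 measured ratios were above 1 and 12 below, with a median log2 ratio of -0.054. The 2 genes called were the kinesin-1 heavy chains known from neurons, which had few tags. Kif5c had 20 counts with Pink1 siRNA and 54 with control siRNA (ratio 0.370, interval 0.210 to 0.629), and Kif5a had 22 counts with Pink1 siRNA and 57 with control siRNA (ratio 0.386, interval 0.225 to 0.641). Of genes of like level, 31 of 583 were as low or lower than Kif5c, and 36 of 583 than Kif5a. The widely expressed heavy chain Kif5b, named after its values were seen, had 5469 counts with Pink1 siRNA and 5015 with control siRNA (ratio 1.09). The kinesin light chain gene Klc2 had a ratio of 1.53 (interval 1.13 to 2.07) and the tubulin deacetylase gene Hdac6 1.40 (interval 1.13 to 1.73). The TRAK adaptors that bind Miro, also named after their values were seen, stood on either side of 1, at 1.31 (interval 1.13 to 1.52) for Trak1 and 0.896 (0.794 to 1.01) for Trak2.

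The list for the MICOS complex, which holds cristae junctions in place, also included the partner genes Dnajc11 and Samm50. This list had 7 of 9 ratios above 1 and a median log2 ratio of 0.11, and none was called. Chchd6 had 499 counts with Pink1 siRNA and 403 with control siRNA (ratio 1.24, interval 1.08 to 1.42). The small subunit genes Minos1 (Micos10) and 2410015M20Rik (Micos13) had ratios of 1.14 and 1.12, and Apool had 1.09. The largest of these differences was 1.24-fold.

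Genes for the ubiquitin control of mitofusins and Miro had 4 of 8 measured ratios above 1, a median log2 ratio of 0.024 and none called. The outer membrane ligase gene Mul1 had 214 counts with Pink1 siRNA and 149 with control siRNA (ratio 1.44, interval 1.16 to 1.78). Ube2n, a ubiquitin-conjugating enzyme, had a ratio of 1.18, the mitochondrial deubiquitinase gene Usp30 1.11 and the p97 cofactor gene Ubxn1 0.903. Usp30 overlaps Alkbh2 over 329 exonic bases on the other strand (102 counts with Pink1 siRNA and 57 with control siRNA), and strand use in counting is unknown, so its value is uncertain. The Parkin gene, Park2 in the tables, was below the count minimum and had 18 counts with Pink1 siRNA and 0 with control siRNA. The lower end of the exact counting interval of that ratio was 4.40. Park2 was named after its values were seen, and 11 genes, Park2 among them, had at least 18 counts with Pink1 siRNA and 0 with control siRNA, while 21 had 0 with Pink1 siRNA and at least 18 with control siRNA.

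Genes that tether the outer membrane to the endoplasmic reticulum had 9 of 14 ratios above 1, with a median log2 ratio of 0.023 and none called. The tether Pdzd8 had 581 counts with Pink1 siRNA and 807 with control siRNA (ratio 0.720, interval 0.646 to 0.802), and 17 of 583 genes of like level were as low or lower. Itpr2 and Itpr1, calcium release channels of the endoplasmic reticulum, had ratios of 0.732 (interval 0.660 to 0.811) and 0.8004 (0.708 to 0.905). Synj2bp, an outer membrane anchor, had 1130 counts with Pink1 siRNA and 891 with control siRNA (ratio 1.27, interval 1.16 to 1.39).

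**Figure D5:**
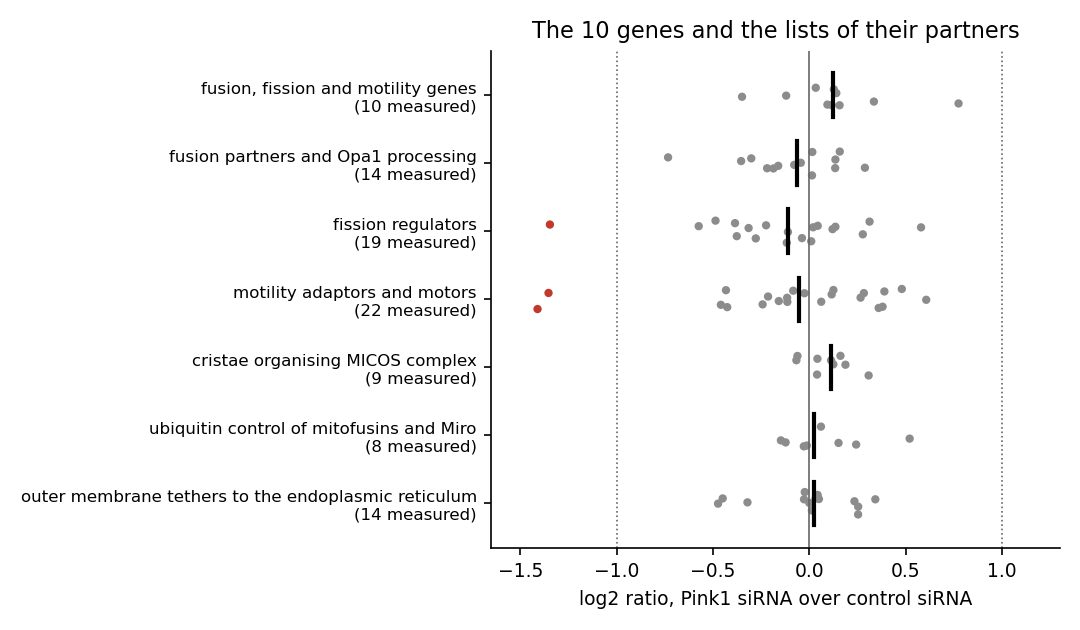
The log2 ratio of Pink1 siRNA over control siRNA (horizontal) for each measured gene (points) of the 10 genes and of 6 lists of partners, with black bars at the medians and dotted lines at a ratio of 2 either way. Red points are the 3 genes called by the rule of size (Mtfp1, Kif5a and Kif5c), all lower. The medians lie between -0.11 and 0.12, and vertical scatter within a line has no meaning.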

How the data were processed

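RNA from 3T3-L1 cells was extracted with Trizol and made into 3′ end libraries with a Lexogen QuantSeq kit, per the labels' protocols. The tools named in the submitters' processing notes are bcl2fastq (version 2.20.0.422), Bowtie2 and bedtools, and the build named is mm10. The annotation, strand use and treatment of multiply mapped reads are not given in the sources used here. In unit, the deposited tables hold unnormalized read counts per symbol (23282 rows, 1 table per library, read as counts from the values). Samples were grouped by title, 1 library per group.

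Counts were scaled by TMM effective library sizes (edgeR 4.0.16, R 4.3.3; no test was run). The log2 ratio adds 0.5 to scaled counts. Ratio intervals are exact conditional binomial (SciPy 1.17.1). A gene was measured at 40 summed counts, and genes of like level are those in the same twentieth of mean level among measured genes. The gene itself is counted among them and among those as far or farther from 1. The calculations were tested on simulated counts. Coordinates are RefSeq GRCm38.p6 (mm10), and overlaps and shared sequence came from GENCODE M21. Named genes were the 10 members, Pink1, the up to 4 genes with the largest log2 ratio in size per list and those called. Other names are marked. The members, lists and rules were chosen with earlier results of these data known. Alternatives were other scalings (DESeq2 1.42.0 among them), filters, added counts and thresholds.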

Additional observations from a re-analysis of the deposited data

How the results depend on the processing

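No paired analysis was possible because each group is 1 library, and for the same reason no library could be left out. Across 69 recalculations of the 10 log2 ratios under 7 settings (4 other scalings, a larger added count of 5, and a minimum of 0 or 200 summed counts), none left its counting interval. For filters and scalings this was set in advance and is no check of robustness. A minimum count cannot change a gene's ratio, and a scaling shifts all log2 ratios nearly alike, the largest shift being -0.058. The narrowest interval of the 10, that of Dnm1l, ran from 0.020 to 0.261. Intervals were not recalculated. Opa1 changed sign, at -0.0089 with total counts and -0.024 with total counts without the precursor ribosomal RNA row. Mief2 ranged from 0.72 to 0.77, Mff from -0.41 to -0.35 and Mfn2 from 0.28 to 0.34. Mief2 had no value at a summed count of 200, and without it the fission median was -0.0019, against 0.12. Of 42 recalculated list medians 5 changed sign, those of motility adaptors (0.018 at a summed count of 200), and ubiquitin control and tethers with both total-count scales (-0.034 to -0.019). Genes past the rule numbered 197 higher and 279 lower; with no filter 604 and 853, with a summed count of 200 28 and 40, at a ratio of 1.5 639 and 774, and at a ratio of 4 29 and 47. These counts differ by the construction of the thresholds. Depth limits Mief2 most, at 103 counts with Pink1 siRNA and 60 with control siRNA.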

Other observations

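The nearest genes with at least 40 counts beside the members that lay farthest from a ratio of 1 were compared with them. Mief2 lies head to head with Flii, an actin-binding protein gene 1134 bases away on the other strand, which had 1431 counts with Pink1 siRNA and 1313 with control siRNA (ratio 1.09, interval 1.011 to 1.18). On the other side of Mief2, Top3a, a DNA topoisomerase gene, had 40 counts in each library (ratio 1.0, interval 0.629 to 1.59). Mff lies 87088 bases from Agfg1, which had 324 counts with Pink1 siRNA and 485 with control siRNA (ratio 0.668, interval 0.579 to 0.771). On its other side, Rhbdd1, a rhomboid protease gene, had 189 counts with Pink1 siRNA and 143 with control siRNA (ratio 1.32, interval 1.06 to 1.65). Mfn2 lies 5048 bases from Plod1, a collagen lysyl hydroxylase gene, which had 1108 counts with Pink1 siRNA and 1006 with control siRNA (ratio 1.10, interval 1.010 to 1.201). On its other side, Zfp933, a zinc finger gene, had 101 counts with Pink1 siRNA and 96 with control siRNA (ratio 1.05, interval 0.788 to 1.41). These are values of single libraries, and no relation between neighbours was tested.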
